A study of Mus musculus with 6 samples.

Results

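The 9 genes described here, Igf1r, Insr, Irs1, Irs2, Foxo1, Foxo3, Mtor, Rptor and Tsc1, encode receptors, adaptors, transcription factors and kinase regulators of insulin, FoxO and mTOR signalling. They were picked by gene symbol, and every row of the deposited transcript table with one of these symbols was taken. All 9 were found, as 12 transcripts, among 13321 genes and 25409 protein-coding transcripts. The 9 genes and the 12 transcripts all had a mean of at least 0.5 FPKM (fragments mapped, scaled by transcript length and library total), the level needed for a test, which 13041 genes and 23637 transcripts reached.

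The mRNA of whole hippocampus was sequenced from WT male mice of the strain C57 BL/6 at 3 months (3M, labelled Young) and at 22 months (22M, labelled aged), to ask which genes differ with age. The 3M libraries were J11, J13 and J15, and the 22M libraries were 72, 76 and 78, so that n = 3 per age throughout. The labels name no agent given to either group. They do not say whether each library came from 1 mouse or from a pool, and a p-value here thus measures library-to-library spread, which may be technical.

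Insulin and insulin-like growth factors bind receptor tyrosine kinases, which phosphorylate adaptors of the IRS family and so switch on PI3K and AKT. AKT phosphorylates FoxO transcription factors, which then leave the nucleus, and it restrains the TSC complex, a brake on mTOR complex 1, the kinase complex that raises protein synthesis and holds back autophagy. In the hippocampus, insulin and IGF receptors are known for their part in synaptic plasticity and memory, and weaker signalling through the pathway is known to lengthen life in worms, flies and mice.

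Insr was the member that stood apart. It was 4.67 times as high at 22M by the ratio of the mean FPKM, and it was the only member past the thresholds used in the study (P under 0.05 without adjustment and a fold of at least 1.5). No member passed the adjusted p (limma, Benjamini-Hochberg adjustment over all genes, threshold 0.05). The other 8 fold changes lay between 0.07 and 0.43 on the log2 scale, all above 0 in the FPKM as deposited. Once each library was corrected for transcript length and for GC content, 5 of these 8 lay below 0.

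The annotated exons of Insr are shown because the receptor exists as isoforms that differ by 1 small exon, and the table holds only 1 of them. The deposited transcript, Insr-201, spans 3150922 to 3279617 of chromosome 8 and is read from the minus strand (GRCm38, GENCODE release vM21). Its 21 exons make 9355 bases, of which 4116 are coding, for 1372 codons. A second annotated transcript, Insr-203, an incomplete model that was not analysed here, carries a coding exon of 36 bases (12 codons) between exons 10 and 11 of Insr-201, at 3181702 to 3181737. Receptor isoform A is known to lack this exon and isoform B to hold it, so the Insr values below are assigned to the model of the short form alone. The exon, chr8:3181702-3181737 on the minus strand, is given in capitals as spliced, between the 12 bases that end the exon before it and the 12 bases that open the exon after it.
Insr-203 exon: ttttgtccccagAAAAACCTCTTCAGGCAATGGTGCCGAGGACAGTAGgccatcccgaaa

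Promoters of the adaptors are shown because Irs1 and Irs2, whose levels differed most within 1 class of members, were the only members of the 8 with a listed promoter that held the E-box CACGTG or the insulin response core TGTTTTG on either strand. Each promoter runs from 250 bases before to 50 bases after the RefSeq start (GRCm38.p6), both lie on the minus strand, and capitals mark these motifs. The Irs1 promoter lies at chr1:82291390-82291689 and the Irs2 promoter at chr8:11008880-11009179.
Irs1 promoter: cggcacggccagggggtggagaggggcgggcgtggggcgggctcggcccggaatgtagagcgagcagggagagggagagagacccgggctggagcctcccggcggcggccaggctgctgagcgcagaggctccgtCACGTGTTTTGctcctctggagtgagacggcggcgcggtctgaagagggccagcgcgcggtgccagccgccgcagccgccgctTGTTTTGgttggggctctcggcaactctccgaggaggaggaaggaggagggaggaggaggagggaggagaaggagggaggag
Irs2 promoter: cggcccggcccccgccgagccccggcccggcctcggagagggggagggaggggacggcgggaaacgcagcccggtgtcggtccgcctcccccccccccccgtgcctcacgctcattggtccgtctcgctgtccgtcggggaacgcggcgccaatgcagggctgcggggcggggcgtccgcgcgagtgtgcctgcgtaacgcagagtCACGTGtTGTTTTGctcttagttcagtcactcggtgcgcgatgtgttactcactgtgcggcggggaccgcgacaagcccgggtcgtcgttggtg

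In the Irs1 promoter the E-box begins 115 bases before the start and overlaps an insulin response core that begins 111 bases before it, and a second core begins 32 bases before the start. The Irs2 promoter holds the E-box 44 bases and the core 37 bases before the start, with 1 base between them. Among 32851 RefSeq promoters of the same length, 7.15% held the E-box, 6.28% held the core on either strand, and 0.408% (134 promoters) held both. The FoxO element GTAAACA, present in 3.65% of promoters, was in none of the 8 members' windows, and the GC box GGGCGG, present in 35.7%, was in all but those of Rptor and Tsc1. A match of letters is no evidence of binding.

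Across the series, the FPKM of all transcripts summed to 318024 to 358073 per library. Read depth is unknown, since FPKM hold no counts and no steps of single reads were found among the low values. By limma on log2(FPKM + 0.5), a scale that understates the change of low genes, 120 genes rose and 158 fell. The hippocampal neuron markers were all detected (9 of 9) with sums of 213 to 343 FPKM at 3M and 281 to 297 at 22M, and 0 of 9 passed the adjusted p. Past the study's thresholds (1.5-fold or more, with p below 0.05 before adjustment) 2 of the 9 were higher (beside 4.08% of all genes), Prox1 (1.56 times) and Dsp (1.62 times), both with the 22M libraries all above. Markers of other cell types moved with age or with a library. Thalamus and habenula markers fell in 4 of 9 tested (sums 81.5 to 143 against 42.1 to 58.7), where Gbx2 was listed at 0 in J15, 72 and 78. Oligodendrocyte markers fell in 5 of 8 (1160 to 1234 against 693 to 896), and erythroid markers rose in 5 of 5 (590 to 633 against 1329 to 2046). Astrocyte markers passed the adjusted p in 0 of 7 and were mixed in direction, with a median log2 fold change of 0.02, although their sums did not overlap (695 to 728 against 757 to 859). By the ratio of means, Gfap and Slc1a2 were both 1.46 times, Aqp4 1.33 times and Slc1a3 1.06 times as high at 22M. Aldoc was 0.867 times, Gja1 0.773 times and Aldh1l1 0.621 times as high. The sums of meningeal, endothelial and mural, and microglial markers overlapped between the ages. Choroid plexus markers (0 of 8 called) summed to 1640 to 2517 at 3M and to 2854, 1172 and 137 in libraries 72, 76 and 78.

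**Figure D1:**
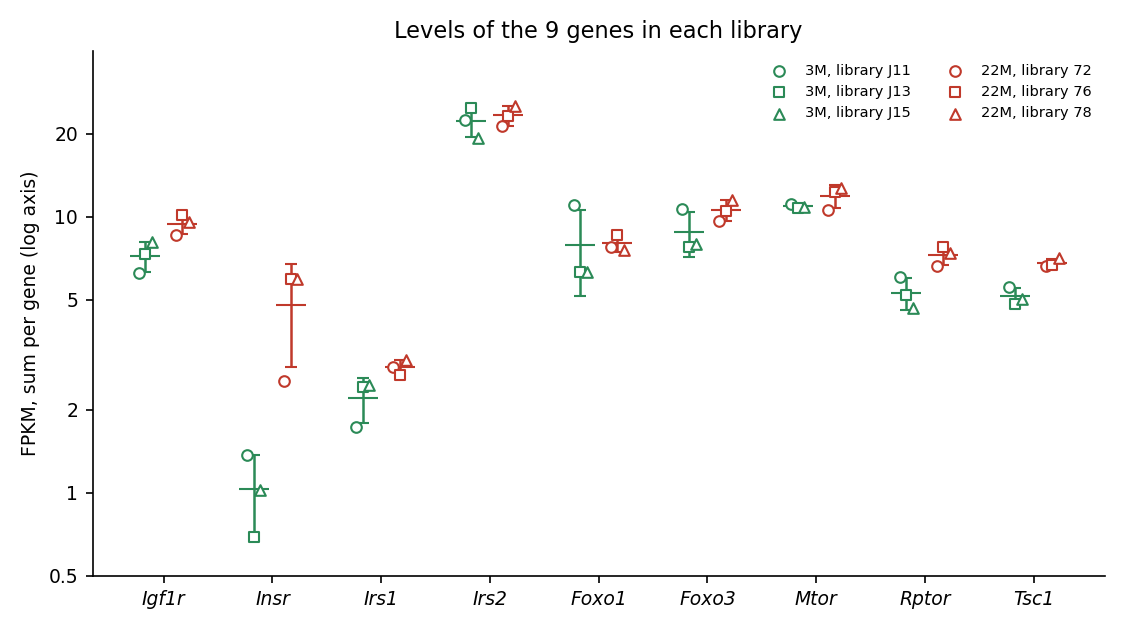
FPKM of the 9 genes (sum of the transcripts of a gene, log axis) in each of the 6 libraries, 3M in green and 22M in red, with 1 marker shape per library; horizontal bars are means and error bars the SD (n = 3). Insr is at 0.693 to 1.37 FPKM at 3M and 2.55 to 5.94 at 22M, while the means of the other 8 genes differ between the ages by at most 1.37 times.

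The insulin receptor gene Insr had 1.37 FPKM in J11, 0.693 in J13 and 1.02 in J15, against 2.55 in 72 and 5.94 in both 76 and 78. Every 22M library lay above every 3M library, and 72 was the lowest of the 22M libraries. The means were 1.03 ± 0.341 and 4.81 ± 1.96 FPKM (SD, n = 3). The log2 fold change was 1.74 (SE 0.34, 95% interval 0.93 to 2.54), with an unadjusted p of 0.00153 and an adjusted p of 0.0529 in limma. An exact permutation test gave p = 0.1, the smallest that 3 against 3 libraries allow (two-sided). Ranked by signed log2 fold change, from the highest down, Insr was 21st of the 13041 genes.

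Like the main setting, most alternatives left Insr short of the adjusted threshold. Over 17 alternatives its log2 fold change stayed between 1.35 and 2.10, its adjusted p ranged from 0.0265 to 0.163, and it passed in 3 of them (a minimum mean of 2 FPKM, median-of-ratios scaling, and array weights). Insr met the minimum of 2 FPKM only through 22M, with a mean of 4.81 FPKM against 1.03 at 3M. The pass under that filter thus cannot count as separate support. It was past the study's thresholds in all 17. Without library 72 the log2 fold change was 2.10, and without 76 or 78 it was 1.56. In the 22M libraries Insr was lowest in 72, where the choroid plexus markers were highest. It was at 5.94 FPKM in both 76 and 78, where those markers summed to 1172 and 137 FPKM. At 3M, J13 had both the lowest Insr and the lowest sum of those markers. The part of the choroid plexus markers, and of those of hippocampal neurons, thalamus, oligodendrocytes, astrocytes and blood, in the Insr values was not tested. In whole tissue, fewer cells of a type and less RNA per cell cannot be told apart.

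Igf1r, the receptor for insulin-like growth factor 1 (chromosome 7, 67952827 to 68233668, plus strand, 21 exons), has the longest transcript of the set, 11409 bases, of which 7267 are the 3′ UTR. Its FPKM were 6.26, 7.33 and 8.08 at 3M and 8.60, 10.16 and 9.55 at 22M. All 22M libraries were above all 3M libraries, by a narrow gap. The mean was 7.22 ± 0.914 against 9.43 ± 0.786 FPKM, with a log2 fold change of 0.37 (SE 0.13, 95% interval 0.06 to 0.67, adjusted p = 0.134 in limma). With the correction for length and GC content the log2 fold change was -0.08.

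The ratio of the receptors compares Igf1r with Insr inside each library. The log2 ratio of Igf1r to Insr was 1.85 in J11, 2.71 in J13 and 2.50 in J15, and it was 1.58 in 72, 0.73 in 76 and 0.64 in 78. Igf1r was thus the more abundant receptor mRNA per length in all 6 libraries, by less at 22M. The mean log2 ratio differed by -1.37 between the ages without overlap (exact permutation p = 0.1, the smallest possible, and 0.2 after adjustment over the 4 ratios compared).

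Irs1 and Irs2 encode the adaptors that carry the signal from both receptors. Irs1 (chromosome 1, 82233101 to 82291416, minus strand, 2 exons, 9144 bases) was at 1.73, 2.42 and 2.45 FPKM at 3M and at 2.84, 2.67 and 3.04 FPKM at 22M. The 22M libraries were all higher, with J11 the lowest library. The mean was 2.20 ± 0.410 against 2.85 ± 0.182 FPKM, a log2 fold change of 0.32 (SE 0.16, 95% interval -0.07 to 0.71, adjusted p = 0.253 in limma) that became -0.04 with the correction for length and GC content.

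Irs2 (chromosome 8, 10984681 to 11008458, minus strand, 2 exons, 6323 bases) was the most abundant member in every library, at 22.5, 24.8 and 19.3 FPKM at 3M and 21.4, 23.3 and 25.3 FPKM at 22M. The ages overlapped, and the log2 fold change was 0.07 (SE 0.12, 95% interval -0.21 to 0.36, adjusted p = 0.723 in limma). The sign changed without J15 (-0.02) and with the correction for length and GC content (-0.07). The log2 ratio of Irs1 to Irs2 was -3.08 ± 0.314 at 3M and -2.83 ± 0.103 at 22M, a difference of 0.25 (exact permutation p = 0.3, adjusted 0.4). Both promoters printed above hold the E-box and the core, and any part of these motifs in the levels was not tested.

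Foxo1 and Foxo3 encode forkhead transcription factors that AKT keeps out of the nucleus. Foxo1 (chromosome 3, 52268336 to 52353221, plus strand, 3 exons, 8665 bases) was at 11.01, 6.31 and 6.32 FPKM at 3M and at 7.80, 8.61 and 7.60 FPKM at 22M. J11 was above every other library and the remaining 3M libraries were below all of 22M. The log2 fold change of 0.07 (SE 0.22, 95% interval -0.46 to 0.59, adjusted p = 0.867 in limma) had no stable sign, at -0.06 without J13, -0.06 without J15 and 0.32 without J11. J11 also had the lowest sum of hippocampal neuron markers, 213 FPKM against 263 to 343 in the other 3M libraries, and the part of this in the Foxo1 value was not tested.

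Foxo3 (chromosome 10, 42181841 to 42276752, minus strand) was at 10.6, 7.76 and 7.94 FPKM at 3M and 9.64, 10.5 and 11.5 FPKM at 22M. Here too J11 overlapped the 22M libraries. The log2 fold change was 0.26 (SE 0.15, 95% interval -0.09 to 0.61, adjusted p = 0.302 in limma). The log2 ratio of Foxo1 to Foxo3 was -0.18 ± 0.196 at 3M and -0.38 ± 0.164 at 22M (exact permutation p = 0.5, adjusted 0.5).

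Both Foxo3 transcripts in the table encode 672 codons and differ mainly in the 3′ UTR, which has 4490 bases in Foxo3-203 and 233 in Foxo3-204. The long form made up 84.9% to 99.1% of the Foxo3 FPKM. The short form was at 1.13, 0.197 and 0.0702 FPKM at 3M and at 0.608, 0.891 and 1.73 FPKM at 22M. These overlapped through J11, and without J11 the short form was past the study's thresholds. Among the deposited transcripts, the larger of the age means never fell below 0.50 FPKM. The short form met this limit only through 22M, with a mean of 1.08 FPKM against 0.465 at 3M. Leaving out J11, its highest 3M library, lowers the 3M side further, so the call without J11 cannot decide whether the short form changed with age.

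Mtor encodes the kinase shared by mTOR complexes 1 and 2, Rptor the subunit raptor that presents substrates to complex 1, and Tsc1 the protein hamartin of the TSC complex, which shuts off the activator of complex 1. Mtor (chromosome 4, 148448611 to 148557683, plus strand, 58 exons, 8564 bases) was at 11.2, 10.8 and 10.9 FPKM at 3M and at 10.6, 12.3 and 12.8 FPKM at 22M. It was the steadiest member among the 3M libraries (mean 10.9 ± 0.210 FPKM), and library 72 was below all of them. The log2 fold change was 0.11 (SE 0.10, 95% interval -0.13 to 0.35, adjusted p = 0.519 in limma) and -0.17 with the correction for length and GC content.

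Rptor (chromosome 11, 119603149 to 119899407, plus strand, 34 exons, 6594 bases) was at 6.06, 5.20 and 4.68 FPKM at 3M and at 6.63, 7.80 and 7.42 FPKM at 22M. No 22M library was as low as any 3M library. The mean was 5.31 ± 0.701 against 7.28 ± 0.598 FPKM, a log2 fold change of 0.43 (SE 0.13, 95% interval 0.11 to 0.74, adjusted p = 0.109 in limma). Rptor was the only member besides Insr whose 95% interval stayed above 0 with the correction for length and GC content (log2 fold change 0.27, interval 0.0029 to 0.54, adjusted p = 0.278). The log2 ratio of Mtor to Rptor was lower at 22M in every library, 0.98 ± 0.151 against 0.67 ± 0.0672 (exact permutation p = 0.1, the smallest possible, adjusted 0.2).

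Tsc1 (chromosome 2, 28641237 to 28691167, plus strand) was at 5.57, 4.84 and 5.05 FPKM at 3M and at 6.63, 6.71 and 7.07 FPKM at 22M. The ages were apart, and the libraries of each age lay close together. The mean was 5.16 ± 0.374 against 6.81 ± 0.237 FPKM, a log2 fold change of 0.37 (SE 0.11, 95% interval 0.11 to 0.63, adjusted p = 0.0944 in limma). With the correction for length and GC content it was 0.09 (interval -0.14 to 0.31).

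The steady Tsc1 sum was made of transcripts that were not steady. Tsc1-201 and Tsc1-204 both encode 1160 codons and differ at the 5′ end, and Tsc1-202 has 1155 codons, with 1 exon that begins at 28678967 in place of 28678952. Tsc1-204 had 3.39 FPKM in J11, 0.205 in J13 and 0.566 in J15, then 3.49 in 72, 0.405 in 76 and 3.70 in 78. It thus took 52.3% to 60.8% of the gene's FPKM in J11, 72 and 78 and 4.24% to 11.2% in the rest, with high and low libraries at both ages. Tsc1-201 ranged from 0.166 FPKM in 78 to 3.69 in 76, and Tsc1-202 from 1.33 in J11 to 3.21 in 78. These transcripts share nearly all of their sequence, so their split is uncertain, and the program that divided the fragments is not given in the sources used here.

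**Figure D2:**
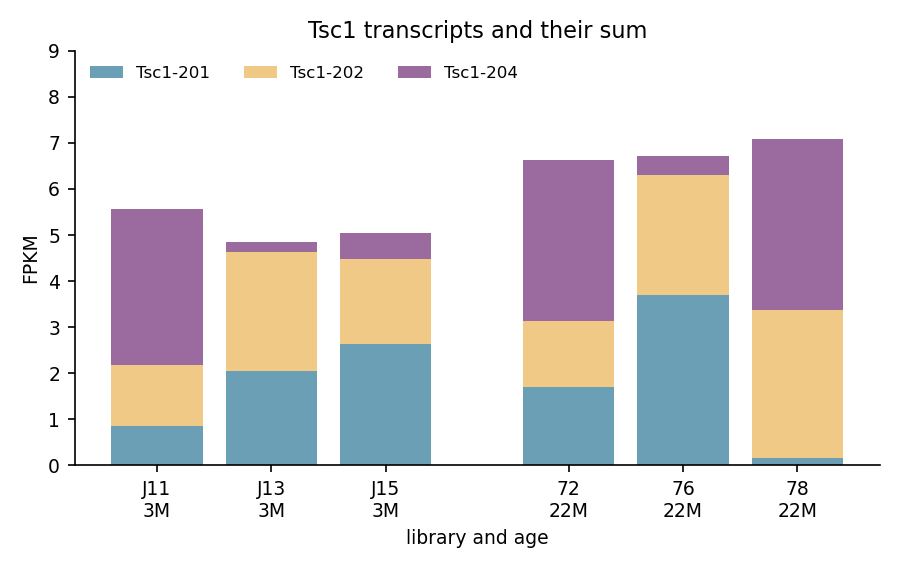
FPKM of the 3 deposited Tsc1 transcripts stacked in each library, with 3M on the left and 22M on the right. The total is 4.84 to 5.57 FPKM at 3M and 6.63 to 7.07 at 22M. The share of Tsc1-204 moves between 4.24% and 60.8% at 3M and between 6.03% and 52.6% at 22M.

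By level, which FPKM gives per transcript length, the 3M order was Irs2, Mtor, Foxo3, Foxo1, Igf1r, Rptor, Tsc1, Irs1 and Insr. The library ranges of Foxo3 and Foxo1, of Foxo1 and Igf1r, and of Rptor and Tsc1 overlapped at 3M, and the other neighbours in the order did not. At 22M, Igf1r came before Foxo1 and Insr before Irs1. Only the steps from Irs2 to Mtor and from Tsc1 to Insr were free of overlap at 22M. Insr was the lowest of the 9 in every 3M library and above Irs1 in 76 and 78.

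Counted together, 0 of the 9 genes rose and 0 fell by the adjusted p in limma, where 0.92% of all genes rose and 1.21% fell. At an unadjusted p under 0.05, 4 members were higher (Igf1r, Insr, Rptor and Tsc1) and 0 lower, beside 10.6% of all genes higher and 16.4% lower. Past the study's thresholds, 1 was higher, beside 4.08% of all genes. The 22M libraries were all above the 3M libraries in 5 members (Igf1r, Insr, Irs1, Rptor and Tsc1), beside 13.3% of all genes, and the log2 fold change was above 0 in 9 of 9, beside 44% of all genes. The median log2 fold change was 0.32 for the members and -0.05 for all genes tested. Of the 12 transcripts, 0 rose and 0 fell in limma, beside 0.123% and 0.0846% of all transcripts. At an unadjusted p under 0.05, 3 were higher (7.38% of all transcripts), and at the study's thresholds 1, Insr-201, was higher (5.03% of all transcripts) and 0 lower (4.54%).

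Transcript length went with these counts. With the genes tested split into 10 equal groups by length, all 9 members lie in the longest group, 1303 genes with a median length of 7604 bases. In this group the median log2 fold change was 0.31, 86% of genes had one above 0, 46.1% had the 22M libraries all above the 3M libraries and 14% were higher at the study's thresholds. The shares of the members without overlap and at the study's thresholds were near those of the 1303 genes. Over 13027 genes, log2 fold change and length had a Spearman's rho of 0.516, given as a description, since the genes share the same 6 libraries. Insr ranked 2nd by signed log2 fold change among these long genes, Rptor 426th, Tsc1 532nd, Igf1r 539th, Irs1 639th, Foxo3 748th, Mtor 1001st, Irs2 1043rd and Foxo1 1052nd of 1303.

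**Figure D3:**
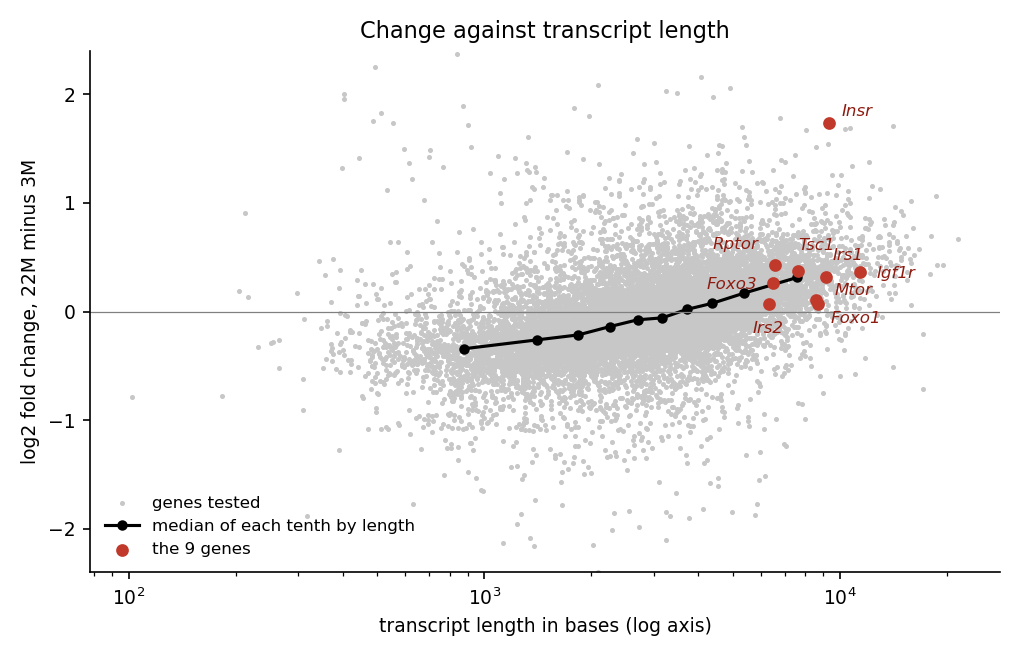
Log2 fold change (22M minus 3M) of the genes tested with a known length against transcript length in bases (log axis), with medians of 10 equal groups by length as a black line and the 9 genes in red; 14 genes lie beyond the axis limits of 2.4. The line climbs from -0.34 to 0.31, and 8 of the 9 genes lie within 0.25 of its last point while Insr lies 1.42 above it.

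With each library corrected for length and GC content, the median of the members was -0.04 and 4 of 9 fold changes were above 0 (Insr, Rptor, Tsc1 and Foxo3). Insr kept a log2 fold change of 1.35 (SE 0.30, 95% interval 0.64 to 2.06, unadjusted p = 0.00321, adjusted p = 0.128 in limma) and was still past the study's thresholds, as were 3.22% of genes in that direction.

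**Figure D4:**
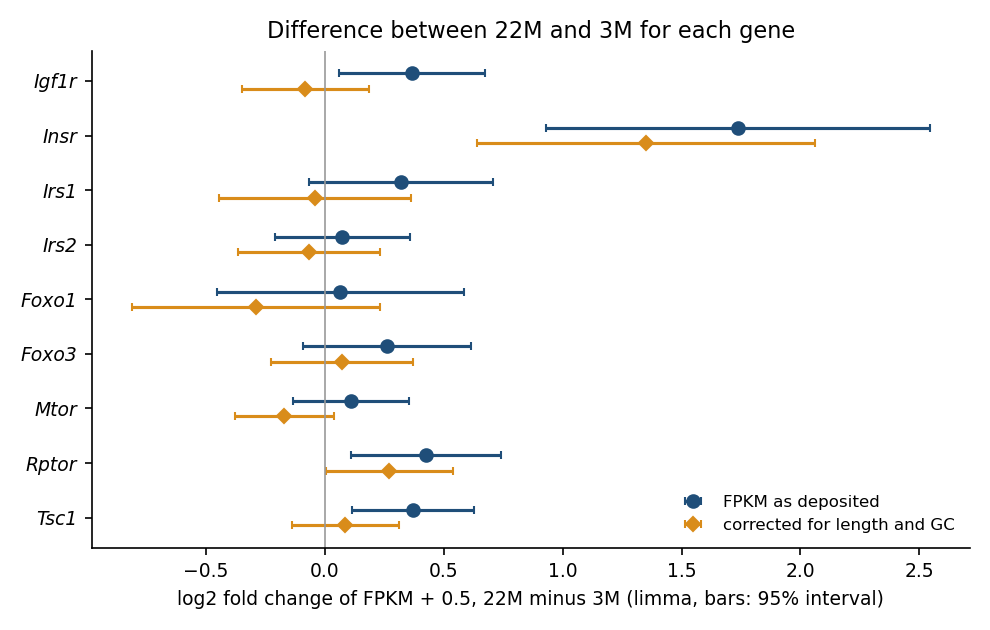
Log2 fold change of FPKM + 0.5 (22M minus 3M) for each gene with its 95% interval from limma, for the FPKM as deposited (blue circles) and after the correction for length and GC content (orange diamonds). All 9 deposited values are above 0, and after the correction 4 are, with Insr at 1.74 and 1.35.

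The genes whose pattern over the 6 libraries was most like that of Insr, by Pearson's r of log2(FPKM + 0.5), were Fkbp15 (0.998), Cbl (0.996), Dlgap2 (0.996), Pik3c2a (0.994) and Nf1 (0.994). In all 5, as in Insr, the 22M libraries were above the 3M libraries and 72 was the lowest of 22M. The genes were picked for likeness to Insr in these same libraries, so this shared pattern is no separate result. Dlgap2 was at 7.25 ± 1.15 and 13.7 ± 2.54 FPKM, and Fkbp15 at 6.94 ± 0.308 and 8.69 ± 0.788 FPKM, so likeness of shape did not mean likeness of size. An r above 0.95 was reached by 274 genes, and 6 points from the same libraries are few.

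Of the other genes of the pathway, 93 were listed and 90 tested. By the adjusted p 0 rose and 2 fell, Ddit4 and Lamtor4, beside 0.92% of all genes that rose and 1.21% that fell. The study's thresholds called Igfbp5 and Rictor higher, beside 4.08% of all genes, and Ddit4 and Lamtor4 lower, beside 4.22%. The median log2 fold change of the 90 was 0.01. Ddit4 encodes REDD1, a stress-induced brake on mTOR complex 1, and was at 27.5, 31.2 and 26.9 FPKM at 3M and 17.3, 19.5 and 18.1 FPKM at 22M (log2 fold change -0.62, SE 0.10, adjusted p = 0.0426 in limma). Lamtor4 encodes a subunit of Ragulator, the lysosomal anchor of mTOR complex 1, and was at 26.7, 26.4 and 22.7 FPKM at 3M and 17.3, 17.0 and 14.4 FPKM at 22M (-0.62, SE 0.11, adjusted p = 0.049964). Both calls were lost when any library other than J15 was left out, with adjusted p of 0.0864 to 0.157, and both were lost with the correction for length and GC content (-0.35 and -0.27). Over the 17 alternatives Ddit4 passed in 8 and Lamtor4 in 3, with Lamtor4 also lost with other pseudocounts, either other scaling and no filter on low values.

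Among the 27 tested inputs to mTOR complex 1, the 22M libraries were all below the 3M libraries in 10, namely the 5 Ragulator genes Lamtor1 to Lamtor5, Rraga, Rheb, Tbc1d7, Prkag1 and Ddit4, beside 21.1% of all genes. They were all above in 4 (Fnip1, Fnip2, Depdc5 and Prkaa2), beside 13.3% of all genes, and 14 of the 27 log2 fold changes were above 0, with a median of 0.02. Apart from Ddit4 and Lamtor4 none of the 27 passed the adjusted p. Rheb, the small GTPase that activates complex 1 and that the Tsc1 complex shuts off, was at 60.8 ± 8.20 FPKM, against 42.7 ± 1.74 FPKM at 22M (adjusted p = 0.0607 in limma), and Lamtor5 was at 49.5 ± 1.06 against 34.1 ± 4.05 FPKM (adjusted p = 0.0513). The median transcript length of the list was 2163 bases, against 8564 for the 9 members. With the correction for length and GC content the median of the list was 0.11 and 0 of 27 passed either threshold.

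Of the other mTOR complex subunits, 0 of 7 passed the adjusted p in limma. At an unadjusted p under 0.05, 1 was higher and 0 lower, beside 10.6% of all genes higher and 16.4% lower. That gene, Rictor, the subunit that defines complex 2, was at 3.81, 3.33 and 4.34 FPKM at 3M and 5.75, 6.45 and 6.82 FPKM at 22M (log2 fold change 0.66, SE 0.14, adjusted p = 0.0578). It was 1.66 times as high by the ratio of means, beside 1.37 times for Rptor of complex 1. With the correction for length and GC content Rictor, whose transcript has 9312 bases, was at a log2 fold change of 0.28 and no longer past the study's thresholds, and without J13 it was not past them either. Akt1s1, which encodes the complex 1 inhibitor PRAS40 and had the highest mean of the list, was at 14.8 ± 4.80 and 17.0 ± 2.41 FPKM (adjusted p = 0.571).

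In the PI3K and AKT relay, 0 of 17 passed the adjusted p and 5 had an unadjusted p under 0.05 in limma. Of these, 4 were higher at 22M and 1 lower, beside 10.6% of all genes higher and 16.4% lower. Pdpk1, the kinase that activates AKT, was at 11.5 ± 1.04 and 16.2 ± 1.39 FPKM (log2 fold change 0.47, adjusted p = 0.0668), and Gsk3b, a kinase that AKT inhibits, at 24.3 ± 0.990 and 32.4 ± 4.22 FPKM (0.40, adjusted p = 0.0856). Akt1, which encodes an AKT kinase, was at 64.8 ± 3.11 and 54.6 ± 3.22 FPKM (-0.25, adjusted p = 0.118). The median transcript length of the list was 5257 bases, against 2922 for all genes tested. With the correction for length and GC content the log2 fold changes of Pdpk1, Gsk3b and Akt1 were 0.20, 0.08 and -0.06. Gsk3a, the paralog of Gsk3b, had the highest mean of the list, at 138 ± 7.66 and 136 ± 0.881 FPKM.

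The FoxO family and its target genes gave 0 of 17 past the adjusted p in limma. At an unadjusted p under 0.05, 1 was higher (10.6% of all genes) and 0 lower (16.4%). That gene, Bcl6, a transcriptional repressor, was at 19.2 ± 1.57 and 25.7 ± 3.35 FPKM (log2 fold change 0.41, adjusted p = 0.10). Its log2 fold change was 0.38 with the correction for length and GC content. Next by p were Bcl2l11, which encodes the cell death protein BIM (1.06 ± 0.0823 and 0.769 ± 0.0793 FPKM, adjusted p = 0.277), and Bnip3, a mitophagy receptor gene with the highest mean of the list (37.3 ± 3.12 and 33.1 ± 1.92 FPKM, adjusted p = 0.292). The median log2 fold change of the list was -0.09.

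Of the 12 outputs of mTOR complex 1, 0 passed the adjusted p in limma. At an unadjusted p under 0.05, 2 were higher at 22M (10.6% of all genes) and 0 lower (16.4%). These were Ulk1, the kinase that starts autophagy (14.3 ± 0.971 and 17.9 ± 0.951 FPKM, adjusted p = 0.0958), and Eif4ebp2, a repressor of cap-dependent translation (13.04 ± 0.772 and 16.0 ± 1.31 FPKM, adjusted p = 0.141). With the correction for length and GC content the log2 fold change of Ulk1 went from 0.32 to 0.31 and that of Eif4ebp2 from 0.28 to 0.10. The ribosomal protein gene Rps6, the most abundant of the list, was at 282, 216 and 158 FPKM at 3M and 134, 154 and 171 FPKM at 22M, which overlapped (adjusted p = 0.205).

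The ligands and binding proteins gave 0 of 10 past the adjusted p in limma. At an unadjusted p under 0.05, 2 were higher (10.6% of all genes) and 0 lower (16.4%). Igfbp5, which encodes an IGF-binding protein, was at 31.9, 40.7 and 43.5 FPKM at 3M and 64.4, 58.6 and 59.2 FPKM at 22M (log2 fold change 0.65, adjusted p = 0.0529), and Igf2r, the receptor that clears IGF-2, was at 3.23 ± 0.164 and 4.28 ± 0.389 FPKM (adjusted p = 0.132). Igfbp5 was no longer past the study's thresholds with the correction for length and GC content (0.44) or without J11. The log2 fold change of Igf2r was 0.36 as deposited and 0.02 with that correction. Igf1, the ligand of the Igf1r product, was at 1.22 ± 0.195 and 1.30 ± 0.202 FPKM. Igfbp2 was at 49.6, 24.4 and 11.4 FPKM in 72, 76 and 78, in the order of the choroid plexus sums of 2854, 1172 and 137 FPKM in those libraries, and at 41.7 to 49.8 FPKM at 3M. The part of that marker shift in the Igfbp2 values was not tested. The insulin gene Ins2 was low, at 0.251 to 1.21 FPKM at 3M and 1.09 in 72, and was listed at 0 in 76 and 78 (adjusted p = 0.428 in limma).

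**Figure D5:**
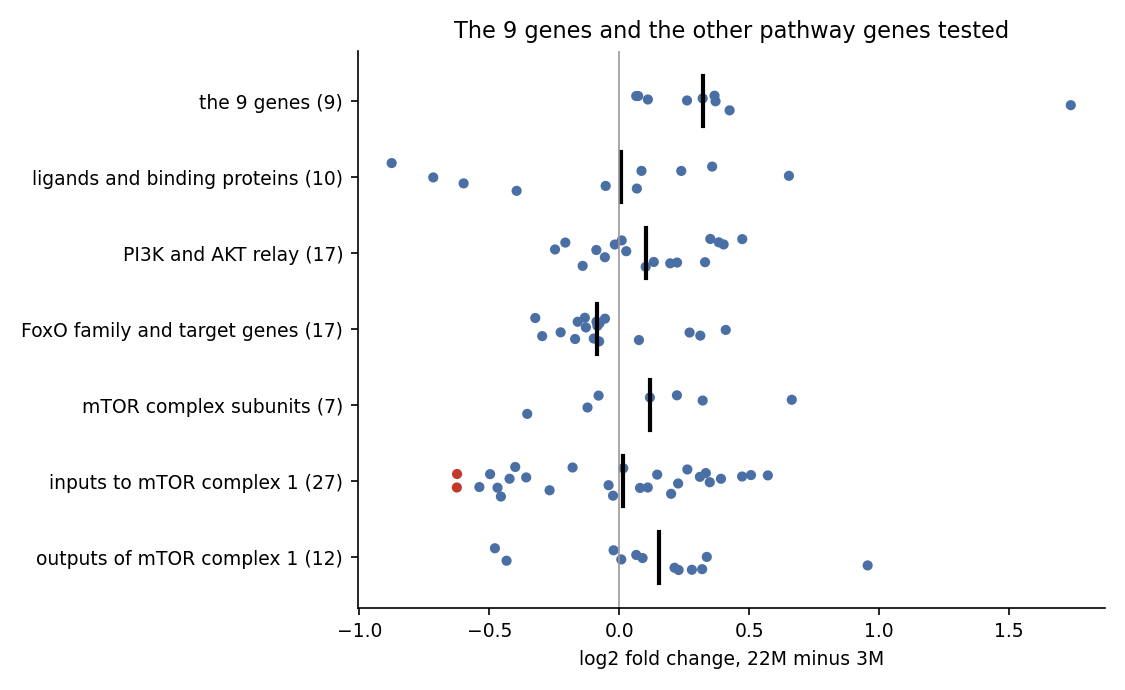
Log2 fold change (22M minus 3M) of the 9 genes and of the 90 other pathway genes tested, 1 point per gene, by list; black bars are medians and red points passed the adjusted p. The 9 genes have a median of 0.32 with Insr at 1.74, and the only red points, Ddit4 and Lamtor4, are among the inputs to mTOR complex 1.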

How the data were processed

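Polyadenylated RNA of the 6 hippocampal samples was turned into stranded libraries, and the authors deposited 1 FPKM value per transcript and library. The submitters' processing notes name HISAT2 and the mouse build GRCm38 (mm10). The quantifier is not given in the sources used here, nor is the release of its annotation. FPKM divide by length and mapped total, so differences in RNA quality or composition between libraries remain in the values. Precision comes from the spread of the 3 libraries per age, with variances that limma moderates across genes.

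Deposited FPKM were summed per gene, and genes averaging 0.5 FPKM or more were compared with limma 3.58.1 in R 4.3.3 (variance trend, log2(FPKM + 0.5), two-sided, Benjamini-Hochberg adjustment over 13041 genes). Genes "rose" or "fell" at an adjusted p under 0.05. The study's thresholds were applied beside it. Ratios within a library were taken on FPKM + 0.5 and compared by exact permutation tests over libraries (two-sided). The correction for length and GC content removed each library's trend with both, by natural splines with 4 degrees of freedom each. Lengths and coordinates came from GENCODE release vM21, in which 99.7% of transcript identifiers were found without their version. Promoters came from RefSeq for 8 of the 9 genes. The tests were tested on simulated data. Figures were drawn in Python 3.11.15 with matplotlib 3.10.9.

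The genes, the pathway lists and the tests were chosen with earlier results of these data known. Named are the 9 genes, every pathway gene past the adjusted p, in each list up to 4 genes by p and the one with the highest mean, and the 5 genes most correlated with the member of smallest p. Not every gene of that rule is printed, and Igf1, Igfbp2, Ins2 and the genes counted by name were picked with their values in view. As alternatives, the fits were repeated with other pseudocounts, filters and scalings, limma without a trend, unmoderated variances, array weights, the correction for length and GC content, 1 transcript per gene, and leaving out each library.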

Additional observations from a re-analysis of the deposited data

How the results depend on the processing

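The direction of Insr, Foxo3, Rptor and Tsc1 was the same under all 17 alternatives. The count of all genes past the adjusted p, 278, became 435 with a minimum mean of 2 FPKM, 37 without a trend, 0 with each gene's own variance, 1295 with array weights, 45 with the correction for length and GC content and 32 with 1 transcript per gene, and 2 to 546 without 1 library. At the study's thresholds it was 1082 (532 higher and 550 lower, 49.2% higher), with 683 after the correction for length and GC content (61.3% higher), and 641 higher and 428 lower (60% higher) with median-of-ratios scaling and 58.3% higher with quantile normalization. The count of the 9 members past the adjusted p went from 0 to 1 with a minimum mean of 2 FPKM, median-of-ratios scaling or array weights, and was 0 without any 1 library. Other pathway genes past the adjusted p, 2, became 1 (Ddit4, with Lamtor4 lost) with a pseudocount of 0.1 or 1 FPKM or no filter, 4 with a minimum mean of 2 FPKM, 12 with array weights, 0 without a trend, with own variances, with the correction for length and GC content and with 1 transcript per gene, and 0 to 4 without 1 library. At the study's thresholds they went from 4 to 2 with either scaling and to 1, Igfbp6, with the correction for length and GC content. That correction moved the members' median from 0.32 to -0.041 and reversed Igf1r (-0.082), Irs1 (-0.041), Irs2 (-0.067), Foxo1 (-0.29) and Mtor (-0.17). Foxo1 also reversed without J13 (-0.061) or J15 (-0.060), with 0.32 as its highest value without 1 library, and Irs2 without J15 (-0.022; highest 0.15, without J13). Member transcripts at the study's thresholds numbered 1 to 2 without 1 library. The causes of these shifts were not tested. No paired analysis was possible because the ages share no replicate numbers. Depth is unknown, and 3 libraries per age limit every comparison.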

Other observations

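Some pathway genes had a wide spread between libraries of the same age, and they were chosen here after their values were seen. Ptpn1, which encodes a phosphatase that acts on the insulin receptor, had 11.4 FPKM in J13, 1.57 in J11 and 0.781 in J15, and 3.71, 1.87 and 1.86 FPKM at 22M. Stk11, the gene of the kinase LKB1 that activates AMPK, was at 3.85, 26.2 and 12.8 FPKM at 3M and at 12.005, 10.6 and 9.75 FPKM at 22M. Nprl3, of the GATOR1 complex that restrains mTOR complex 1 when amino acids are scarce, was listed at 0 in J15 and was at 1.52 to 4.25 FPKM elsewhere. Rragc, a Rag GTPase gene, was at 8.04, 23.3 and 9.99 FPKM at 3M and at 19.1, 8.45 and 22.6 FPKM at 22M. Igf2 was at 33.9, 12.96 and 46.5 FPKM at 3M and at 18.0, 46.5 and 6.74 FPKM at 22M, a wide spread at both ages.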
